A study of Mus musculus with 10 samples.

Results

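The fibrillar collagen genes Col1a1, Col1a2, Col3a1, Col5a1, Col5a2, Col5a3, Col11a1 and Col11a2 were examined in CUT&Tag libraries of primary mouse cardiac fibroblasts. They were picked by name and are 8 of 22473 genes with a region in at least 1 of 5 tables. Every region that the authors' annotation assigned to them was used, which gave 312 of 340994 regions: 41 of 74751 in the H3K9lc table, 110 of 72990 for JUN, 55 of 58633 for SMAD3, 70 of 68767 for NFATC2, and 36 of 65853 in a table of H3K9lc in control and TGF-β-treated cells.

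In CUT&Tag an antibody tethers a transposase to chromatin, and the DNA cut there is sequenced. H3K9lc is lactylation of histone H3 at lysine 9. The study asked whether hexokinase 1 (HK1), the first enzyme of glycolysis, was needed for this mark and for c-JUN, NFATC2 and SMAD3 on chromatin in fibroblasts exposed to TGF-β. The 10 libraries came from heart fibroblasts. In the TGF libraries (1 each for H3K9lc, JUN, SMAD3 and NFATC2) cells had received TGF-β, and in the 4 matching siHK1 libraries they had received an siRNA against Hk1 before TGF-β, so TGF-β was common to both sides of that comparison. The siHK1 library of H3K9lc carries only "SI" in its title and is called siHK1 from the table its label names. The NC (control) library had no treatment, and its antibody is taken to be H3K9lc from the table named in its label. One more library, titled TGF, carries no antibody name and enters no comparison. Each library stands alone in its condition, so every difference below is between libraries and was not tested. Intervals are exact 95% binomial intervals, which cover counting error only. The tables hold no RNA, so the knockdown was not checked.

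Fibrillar collagens form the cross-striated fibrils of the extracellular matrix. Type I, a heterotrimer of the Col1a1 and Col1a2 chains, is the bulk of scar tissue, type III is a homotrimer of Col3a1 that co-assembles with type I, and types V and XI lie inside fibrils and set their number and width. Activated cardiac fibroblasts are the main source of this matrix, and TGF-β, which signals through SMAD3, is the best known inducer of type I and type III collagen. JUN belongs to the AP-1 factors, and NFATC2 is a factor that enters the nucleus upon calcium signalling. AP-1 factors bind the letters TGANTCA, where N is any base, SMAD3 binds CAGAC, and NFAT factors bind GGAAA.

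Read depth set what could be seen. JUN gave 4215447 reads over listed regions in the TGF library and 2271336 in the siHK1 library, whereas SMAD3 gave 563562 and 399897 and NFATC2 gave 575706 and 354599. H3K9lc gave 2490853 and 1419023. Each pair of libraries was therefore brought to equal totals over listed regions before ratios were taken. In the SMAD3 and NFATC2 libraries the 5 deepest regions held 13.6% to 17.7% of all reads, against 1.34% to 1.75% for JUN. A region was taken to have a level at a mean of at least 5 scaled reads over both libraries. Among the fibrillar collagen regions 39 of 41 had a level for H3K9lc, 106 of 110 for JUN, 20 of 55 for SMAD3 and 13 of 70 for NFATC2. As a check of the cell type, JUN regions within 1 kb of a start site were found at 6 of 10 fibroblast markers (Pdgfra, Tcf21, Ddr2, Postn, Col1a2 and Col3a1, but not Dcn, Lum, Thy1 or Col1a1) with 66.2 to 108 reads per kb in the TGF library. They were found at 5 of 6 endothelial markers with 38.2 to 106 reads per kb, at 2 of 8 cardiomyocyte markers with 43.2 and 52.0, and at 1 of 4 markers of smooth muscle and pericytes with 36.7. At 2 of 6 macrophage markers, Csf1r and Cd68, there were 164.7 and 109.5 reads per kb, more than at any of the fibroblast markers. The check thus did not set fibroblast markers apart. JUN occupancy at a start site is not a measure of RNA, and the makeup of the culture was not tested.

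JUN was the deepest signal at the fibrillar collagen genes. Per kb of listed region in the TGF library it was highest at Col1a1 with 246 reads, followed by Col5a3 with 199.7, Col5a1 with 122.7 and Col3a1 with 108.6. Col1a2 had 93.2, Col5a2 88.5, Col11a1 76.7 and Col11a2 63.8. The siHK1 library placed Col1a1 (110.2) and Col5a3 (109.0) at the top as well, and these differed little from each other. SMAD3 in the TGF library gave between 9.07 reads per kb at Col3a1 and 23.0 at Col11a2, and NFATC2 between 4.54 at Col3a1 and 22.3 at Col1a1. H3K9lc ran from 23.9 reads per kb at Col5a3 to 60.3 at Col5a2. No H3K9lc region was assigned to Col1a1 in either table.

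**Figure D1:**
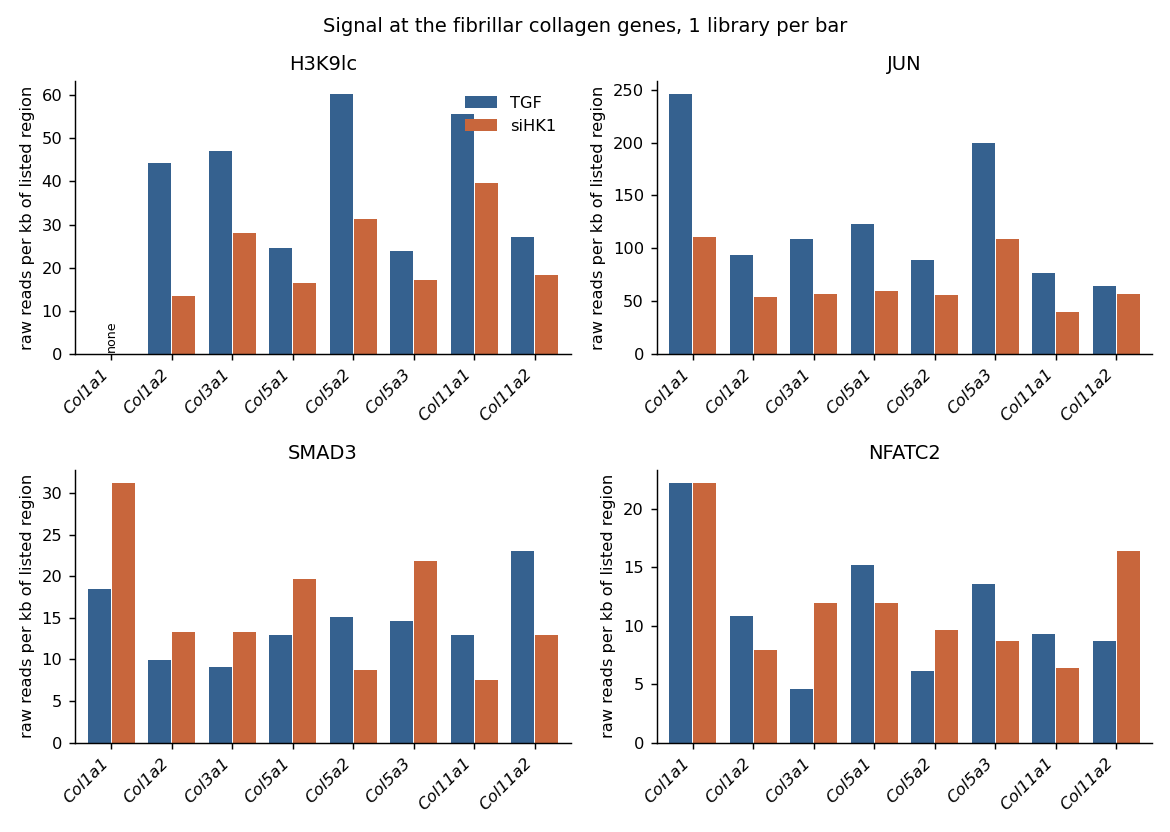
Raw reads per kb of listed region (vertical axis) at each gene in the TGF and siHK1 libraries of each antibody, with 1 library per bar and no replicate error. Col1a1 and Col5a3 carry the tallest JUN bars, and the TGF bars also reflect the larger read totals of those libraries.

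Most signal lay away from the start sites. The annotation placed 57.3% of the fibrillar collagen JUN regions between genes, against 32.9% of all JUN regions. For SMAD3 these shares were 58.2% and 39.7%, for NFATC2 47.1% and 41.2%, and for H3K9lc 80.5% and 65.3%. Only 6 JUN regions, 2 NFATC2 regions and none of SMAD3 or H3K9lc lay within 1 kb of the start of a principal transcript. Distances below are from that start, along the gene. The annotation's own promoter class was wider, since it also counts starts of shorter transcripts inside the genes: 10 JUN regions lay within 1 kb of a start by that reckoning.

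**Figure D2:**
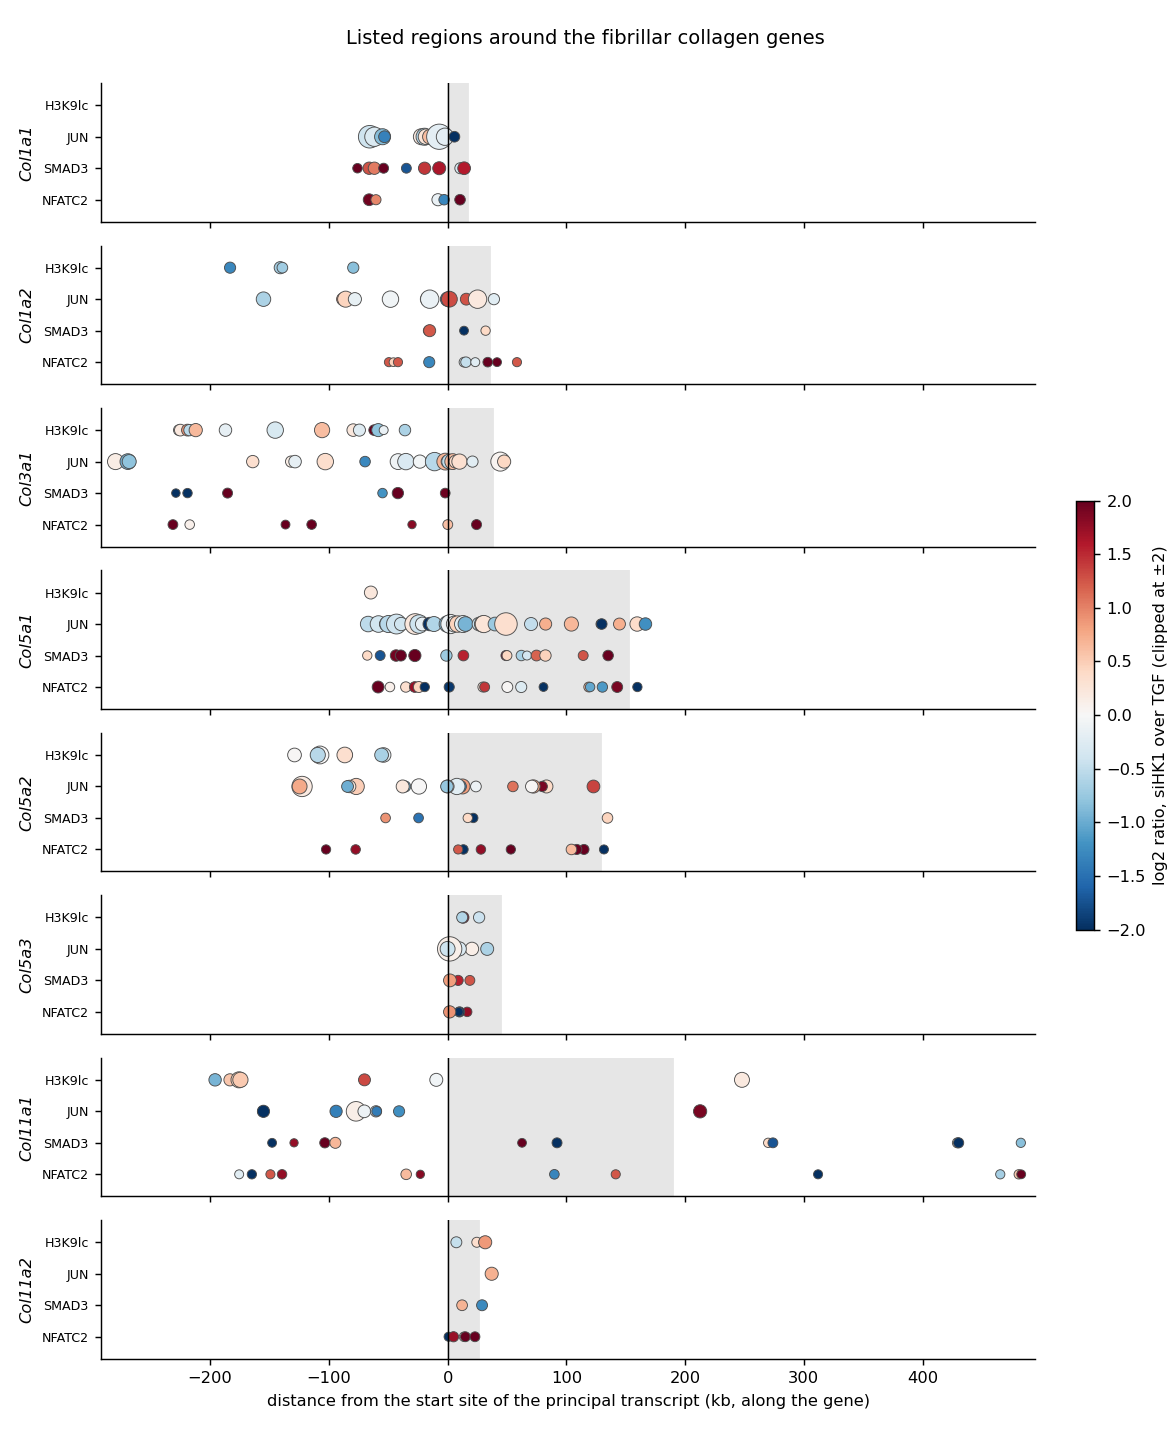
Each circle is a listed region, placed by its distance in kb from the start of the principal transcript (horizontal axis) in 1 row per antibody, with the gene body shaded, circle area rising with mean scaled reads, and colour giving the log2 ratio of siHK1 over TGF. JUN circles cluster upstream of Col1a1, around and within Col5a1 and at the start of Col5a3, while Col11a1 holds H3K9lc and JUN circles outside its gene body.

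The deepest JUN region of each gene, that with the highest mean of scaled reads over both libraries, carried AP-1 letters in 7 of 8 genes, with 13 copies of TGANTCA in all; Col11a2, whose single JUN region was short and shallow, had none. These regions were between 600 and 1700 bp long in those 7 genes. Of the deepest JUN regions of that length over all genes, 67.9% of 9355 held the letters, so the match was not particular to collagen genes. Over the central 200 bp, TGANTCA was found in 28.2% of the 110 fibrillar collagen JUN regions and in 29.3% of all JUN regions. In SMAD3 regions the shares were 12.7% and 6.69%, in NFATC2 regions 12.9% and 6.66%, and in H3K9lc regions 14.6% and 6.3%. CAGAC was found in 40.0% and 38.2% of SMAD3 regions and in 37.3% and 44.5% of JUN regions. GGAAA was found in 55.7% and 42.9% of NFATC2 regions and in 56.4% and 47.6% of JUN regions. All were searched on both strands, and a match is a description of the letters only. The copies in the deepest JUN regions are printed with 10 bases on either side, to show the sequence in the deepest JUN region of each gene. At Col1a2 a region 15.1 kb upstream, with 141 reads in TGF and 69 in siHK1, was nearly as deep as the one used, which had 126 and 79. They are given 5′ to 3′ on the gene's strand from the mouse genome build GRCm38, with the AP-1 letters in capitals.
Col1a1, chr11:94928166-94928192: cattcccagaTGACTCAcaagcctgga
Col1a2, chr6:4531187-4531213: gacatcacagTGAGTCAgaaggccagt
Col1a2, chr6:4531804-4531830: tagctaaggaTGAGTCAtgagaaaaca
Col3a1, chr1:45356093-45356119: gacacgaaagTGATTCAtttggaaggg
Col5a1, chr2:27935672-27935698: gcttgggacaTGATTCAcatttagcca
Col5a1, chr2:27936282-27936308: gttgttctgaTGAGTCAcctggagctg
Col5a1, chr2:27936694-27936720: ccacacagcgTGATTCAccaagtaaag
Col5a2, chr1:45626112-45626138: atggaataaaTGACTCAggatcttggc
Col5a2, chr1:45626852-45626878: atctcagaagTGACTCAtagaattgtc
Col5a3, chr9:20812993-20813019: aagggactggTGAGTCAccgctgacgc
Col11a1, chr3:113952517-113952543: gaactgggatTGAGTCAttgcttaaga
Col11a1, chr3:113952743-113952769: gctggggaaaTGAGTCAgcacacagtt
Col11a1, chr3:113953135-113953161: tgtgctccacTGACTCAccgttaccag

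Type I collagen held the deepest of these regions. At Col1a1, 11 JUN regions summed to 1670 reads in the TGF library and 748 in the siHK1 library. After scaling the log2 ratio of siHK1 over TGF was -0.27 (95% interval -0.39 to -0.14), a small difference that exceeded counting error. The deepest JUN region lay 7.03 kb upstream (chr11:94927538-94929192, between genes) with 590 reads in TGF and 278 in siHK1. A region 65.6 kb upstream (chr11:94869682-94870597) held 386 and 156 reads, at a log2 ratio of -0.41 (-0.69 to -0.14). Of the 11 regions 2 were at least 2-fold lower, beside 10.2% of all JUN regions with a level, and both were shallow, with 20 and 4 reads 53.1 kb upstream and 13 and 1 reads 5.76 kb into the gene. No region of any antibody lay within 1 kb of the Col1a1 start.

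SMAD3 had the opposite sign at Col1a1. Its 9 regions summed to 62 TGF reads and 105 siHK1 reads, so the siHK1 library had more reads although it was the shallower of the pair. The log2 ratio was 1.25 (0.79 to 1.73), and 5 of the 6 regions with a level were at least 2-fold higher, beside 30.0% of all SMAD3 regions with a level. Of the 9 regions 4 were peaks in siHK1 only. The region 7.06 kb upstream (chr11:94928736-94929167), inside the deepest JUN region, held 10 and 23 reads. Regions 66.1, 61.7 and 19.4 kb upstream held 9 and 16, 10 and 15, and 8 and 16 reads in TGF and siHK1. A region in an exon 13.9 kb into the gene (chr11:94950147-94950614) held 9 and 20. The 1 region within 3 kb of any annotated start, 10.7 kb into the gene, held 9 and 5 reads, the opposite sign. NFATC2 gave 35 reads in each library over 5 Col1a1 regions, a log2 ratio of 0.70 (-0.02 to 1.42). At the site 66.1 kb upstream it had 5 and 13 reads.

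Col1a2 carried a JUN region across its start (chr6:4505142-4505622) that was called a peak in TGF only. It held 63 TGF reads and 12 siHK1 reads, at a log2 ratio of -1.47 (-2.53 to -0.60). The next region, 1.5 kb into the gene (chr6:4506991-4507641), was a peak in siHK1 only, with 38 and 51 reads and a log2 ratio of 1.30 (0.68 to 1.96). Neighbouring regions thus differed in sign. A shallower region 15.7 kb into the gene held 8 and 11 reads, and the gene's 13 JUN regions together gave 675 and 392 reads, a log2 ratio of 0.11 (-0.08 to 0.29). For SMAD3 the gene held 15 and 20 reads and for NFATC2 30 and 22, with both intervals spanning 0. H3K9lc gave 56 and 17 reads over 4 regions that lay 79.5 to 183 kb upstream of the start. The log2 ratio was -0.91 (-1.78 to -0.10), the H3K9lc gene sum furthest below 0 among the fibrillar collagens. All 4 were peaks in TGF only, and a region listed for that reason leans towards a low ratio. Relative to the median H3K9lc region the ratio was -0.80, and its interval (-1.67 to 0.01) reached past 0.

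Type III collagen, Col3a1, had 21 JUN regions with 1135 and 589 reads, a log2 ratio of -0.05 (-0.20 to 0.09). The deepest (chr1:45355938-45356590) lay 44.4 kb past its start, between Col3a1 and Col5a2, which end towards each other on chromosome 1, and held 156 and 87 reads. SMAD3 was low at Col3a1, with 15 and 22 reads over 6 regions and a log2 ratio of 1.05 (0.04 to 2.10). Of these, 2 and 12 reads lay in a region 41.9 kb upstream (chr1:45269187-45269654). NFATC2 gave 8 and 21 reads over 7 regions, all of them peaks in siHK1 only and none with a level, at a log2 ratio of 2.09 (0.86 to 3.48). H3K9lc gave 293 and 174 reads over 14 regions, all upstream and between genes, with a log2 ratio of 0.06 (-0.22 to 0.34).

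Type V collagen nucleates fibrils. Col5a1, the chain present in all common forms of type V, had 30 JUN regions, more than any other member, with 2373 reads for TGF and 1153 for siHK1. The log2 ratio was -0.15 (-0.25 to -0.05). The deepest region (chr2:27935566-27937205), in an intron 49.1 kb into the gene, held 298 and 203 reads, at a log2 ratio of 0.34 (0.07 to 0.60). A region 15 kb upstream (chr2:27870915-27871379) held 51 TGF reads and 4 siHK1 reads, a log2 ratio of -2.67 (-4.71 to -1.34). Among the JUN regions of the 8 genes with a level, none differed more in either direction. A region 167 kb past the start held 27 and 6. SMAD3 at Col5a1 gave 62 and 94 reads over 15 regions, at a log2 ratio of 1.10 (0.62 to 1.58), and 5 of the 7 regions with a level were at least 2-fold higher, beside the same 30.0%. Of the 15 regions 9 were peaks in siHK1 only, among them all 5 that were higher. A region listed for that reason leans towards a high ratio. The deepest SMAD3 region lay 27.6 kb upstream (chr2:27858361-27858863) with 4 reads in TGF and 18 in siHK1. NFATC2 gave 84 and 66 reads, with an interval spanning 0. Its deepest region, 58.5 kb upstream (chr2:27827311-27827921), held 3 and 15.

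Col5a2 had signs opposite to Col5a1 for JUN and SMAD3. Its 20 JUN regions gave 702 and 441 reads, a log2 ratio of 0.22 (0.05 to 0.40), and its 5 SMAD3 regions gave 19 and 11 reads, a ratio of -0.29 (-1.51 to 0.85) whose interval spans 0. JUN reads were 24 and 5 in an exon region 10.7 kb into the gene and 12 and 17 in one 123 kb into it. NFATC2 gave 19 and 30 reads over 10 regions at 1.36 (0.48 to 2.27). For H3K9lc it was the strongest member, with 365 and 190 reads over 8 regions, all upstream between genes, and a log2 ratio of -0.13 (-0.39 to 0.13). The deepest (chr1:45610761-45612235), 107 kb upstream, held 113 and 65 reads. Col5a3, a chain of a rarer form of type V, had a single dominant site. A JUN region 1.73 kb into the gene (chr9:20812313-20813333) held 454 of its 610 JUN reads in TGF and 265 of 333 in siHK1, at a log2 ratio of 0.12 (-0.11 to 0.34). SMAD3 had 14 and 18 reads there and NFATC2 11 and 13. Over 3 regions SMAD3 gave 18 and 27 reads at Col5a3, a log2 ratio of 1.08 (0.17 to 2.03).

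Type XI collagen is best known from cartilage, and its genes carried the fewest JUN reads per kb in the TGF library, though not the fewest for the other antibodies. Col11a1 had 9 JUN regions with 300 and 156 reads (-0.05, -0.34 to 0.23), none in its gene body. Regions 155 kb and 93.9 kb upstream held 28 and 3 reads and 25 and 5 reads, whereas a region 213 kb past the start (chr3:114243181-114244060) held 11 and 23. SMAD3 gave 41 and 24 reads over 11 regions, with an interval spanning 0. H3K9lc at Col11a1 gave 217 and 154 reads over 7 regions, with a log2 ratio of 0.32 whose interval (0.01 to 0.62) barely cleared 0. A region 70 kb upstream held 8 and 12. Col11a2 had 1 JUN region with 19 and 17 reads. Its SMAD3 reads were 16 and 9, and its NFATC2 reads 9 and 17 over 5 regions, a log2 ratio of 1.62 (0.37 to 2.96).

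**Figure D3:**
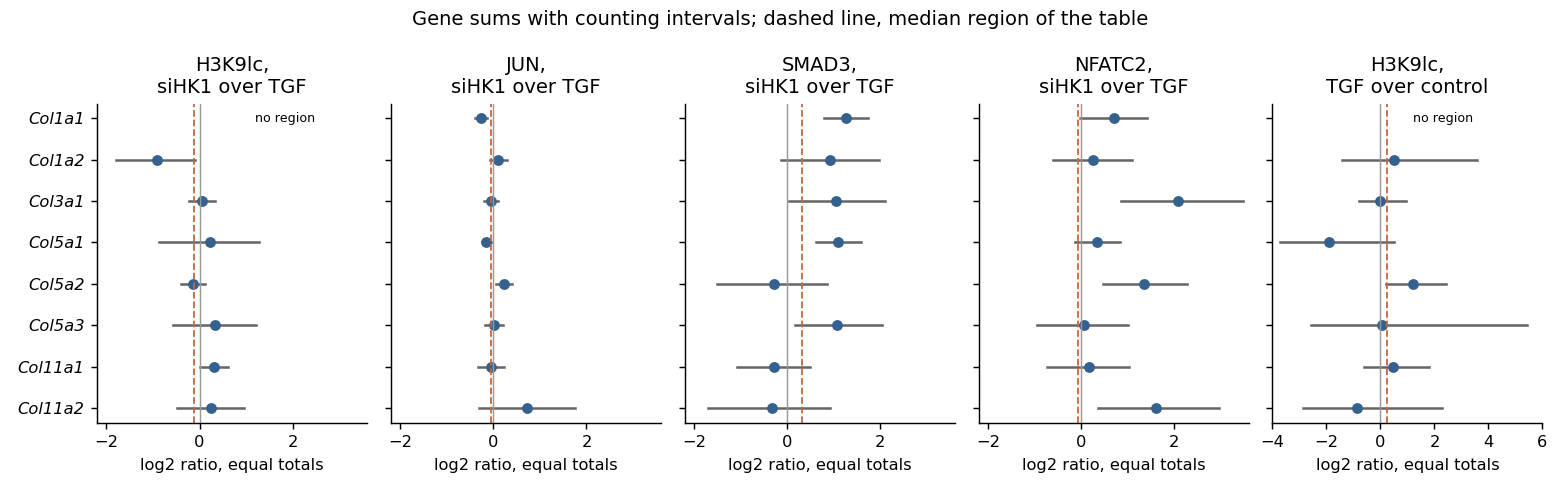
Points give the log2 ratio of reads summed over all regions of a gene after scaling to equal totals, lines the exact 95% counting interval, and the dashed line the median region with a level in each table. In the SMAD3 panel Col1a1 (1.25) and Col5a1 (1.10) have intervals wholly to the right of the dashed line, and JUN points lie near 0 with narrow intervals, except at Col11a2.

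Counted over regions, JUN and H3K9lc stayed near their tables as a whole. Among 39 H3K9lc regions with a level, 2 were at least 2-fold lower in siHK1 and 3 higher, beside 10.9% lower and 7.85% higher over all regions with a level. Among 106 JUN regions 12 were lower and 4 higher (11.3% and 3.77%), beside 10.2% and 6.11% over all. Their median log2 ratio was -0.12, against -0.05 over all JUN regions with a level. SMAD3 stood differently. Of 20 regions 12 (60.0%) were at least 2-fold higher and 1 was lower, beside 30.0% higher and 14.8% lower over all SMAD3 regions with a level. The median was 1.21, against 0.33 over all. The genes contributed unevenly, since 10 of the 12 belonged to Col1a1 and Col5a1. Peaks called in siHK1 only made up 56.4% of the 55 SMAD3 regions and 47.7% of all, and a region listed for that reason leans towards a high ratio. Most of the 12 higher regions, among them all of those at Col5a1, were such peaks. Of 13 NFATC2 regions 5 were higher and 1 lower, beside 17.0% higher and 15.3% lower over all. All 5 higher regions were peaks in siHK1 only and the lower one a peak in TGF only, so listing leans towards these calls too.

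**Figure D4:**
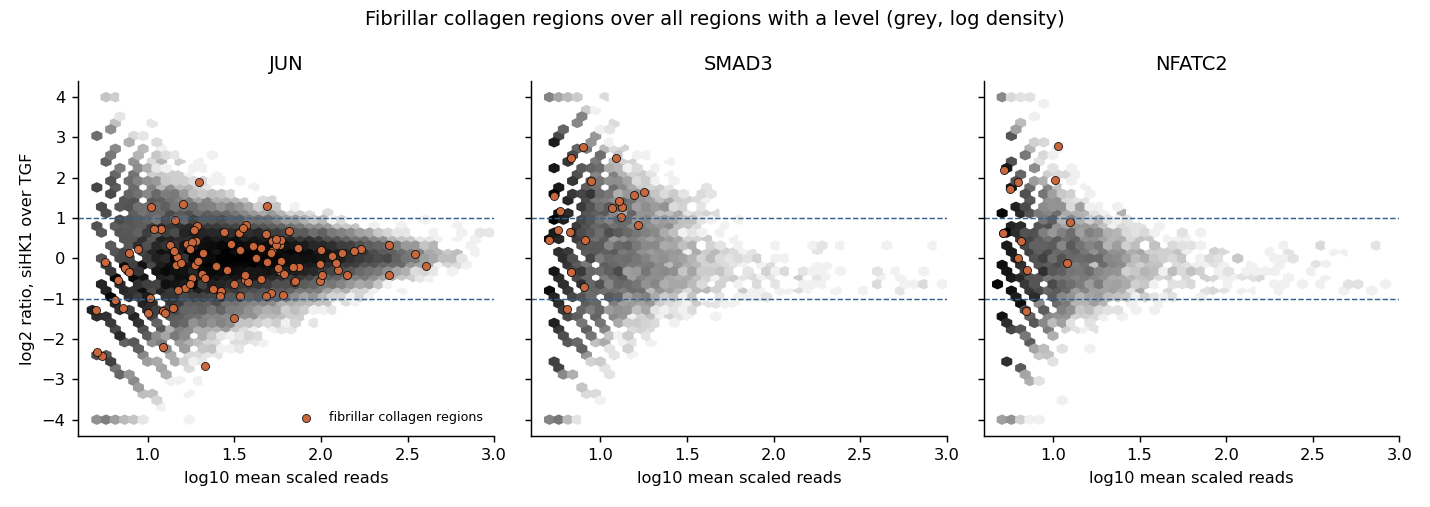
Log2 ratio of siHK1 over TGF (vertical axis) against log10 mean scaled reads for regions with a level, with all regions in grey density and fibrillar collagen regions as points, and dashed lines at 2-fold. JUN points spread around 0, whereas 12 of 20 SMAD3 points lie above the upper line, all at modest depth.

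Summed over all 8 genes, the log2 ratio was 0.04 (-0.11 to 0.18) for H3K9lc from 1023 and 598 reads and -0.07 (-0.13 to -0.02) for JUN from 7484 and 3829. It was 0.83 (0.58 to 1.07) for SMAD3 from 248 and 312 reads and 0.62 (0.36 to 0.89) for NFATC2 from 239 and 227. Without the regions between genes the JUN ratio changed sign, to 0.074, and that of H3K9lc was 0.30. With the median JUN region set to 0 the JUN ratio was -0.026. Without scaling the signs of H3K9lc and NFATC2 turned negative, while SMAD3 stayed above 0. The median SMAD3 region with a level itself stood at 0.33, and relative to that median the 8 genes stood at 0.50. At gene level none of the 7 genes with an H3K9lc region was 2-fold lower or higher, beside 4.13% and 3.57% of all genes with a level. None of the 8 was so for JUN, beside 3.63% and 2.59%. For SMAD3 4 of 8 were higher (Col1a1, Col3a1, Col5a1 and Col5a3) and none lower, beside 21.2% and 11.5%. Raw SMAD3 reads were also higher in siHK1 at these 4 genes, so the direction did not turn under any of the scalings, but relative to the median region each stood below 2-fold, at 0.93, 0.72, 0.77 and 0.75. On that scale the intervals of Col3a1 (-0.29 to 1.77) and Col5a3 (-0.16 to 1.70) spanned 0. Those of Col1a1 (0.46 to 1.41) and Col5a1 (0.29 to 1.26) did not. Peaks in siHK1 only were 4 of 9 regions at Col1a1, 3 of 6 at Col3a1, 9 of 15 at Col5a1 and 2 of 3 at Col5a3. Such listing leans towards a high ratio. For NFATC2 3 of 8 were higher (Col3a1, Col5a2 and Col11a2) and none lower, beside 14.9% and 8.84%. Without scaling Col5a2 and Col11a2 were below 2-fold, at 0.66 and 0.92. These 3 genes rest on 22 regions, of which 18 were listed as peaks in siHK1 only and 1 had a level, and such listing leans towards a high ratio.

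JUN reads were fewer in siHK1 close to the principal start sites. The 6 JUN regions within 1 kb of a start belonged to 5 genes and summed to 304 reads in TGF and 97 in siHK1, a log2 ratio of -0.76 (-1.10 to -0.42). Besides Col1a2 above, the region 0.18 kb upstream of Col5a1 (chr2:27885608-27886245) held 108 and 31 reads, at -0.90 (-1.53 to -0.32). At Col3a1 (chr1:45311134-45311496) there were 28 and 9 reads, and at Col5a3 (chr9:20814983-20815228) 57 and 23. Col5a2 had 26 and 8 reads in a region 0.52 kb upstream and 22 and 14 in one across its start (chr1:45503052-45503383), the only one of the 6 with a ratio above 0. Only the Col1a2 region passed 2-fold. The median of the 6 was -0.75. Counting every start in the annotation, 10 regions of the 8 genes lay within 1 kb and held 452 and 193 reads, a log2 ratio of -0.34 (-0.59 to -0.09). Of the 9 with a level 6 were below 0, with a median of -0.72, against -0.01 over 12737 JUN regions with a level at that distance, of which 51.0% were below 0. Within 3 kb of any start 20 regions held 1405 and 748 reads, at -0.02 (-0.15 to 0.11). Col5a1 and Col1a1 stood below 0 in that window, at -0.45 and -0.34, while Col1a2, Col3a1, Col5a2 and Col5a3 stood above it at 0.27, 0.09, 0.13 and 0.06. Col1a1 had no JUN region within 1 kb of any start. Of the 9 regions with a level within 1 kb of any start 7 were peaks in TGF only, against 34.8% of the 12737, as were 5 of the 6 at principal starts, and a region listed for that reason leans towards a low ratio. The part of peak calling in this difference was not tested.

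RefSeq promoters of GRCm38.p6, running from 250 bases before to 50 after the start, were matched by symbol for 6 of 8 genes, and those of the 4 with a JUN region there are printed because these are the sites where JUN reads were fewer in siHK1. Capitals mark the letters of the SMAD motif and of the NFAT motif on either strand. TGANTCA occurred in none of the 6, and in 7.81% of all 32851 promoters of that table. CAGAC was found in 49.6% and GGAAA in 61.3% of all promoters. The printed promoters differ widely in composition, from 37.7% G and C at Col3a1 to 75.0% at Col5a1.
Col1a2, chr6:4505368-4505667, plus strand: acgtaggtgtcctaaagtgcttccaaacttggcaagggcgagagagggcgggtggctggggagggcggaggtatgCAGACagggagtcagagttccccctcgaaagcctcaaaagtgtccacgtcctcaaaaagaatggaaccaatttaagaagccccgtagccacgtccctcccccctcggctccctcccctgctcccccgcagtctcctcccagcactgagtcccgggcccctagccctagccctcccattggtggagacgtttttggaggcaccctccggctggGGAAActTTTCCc
Col3a1, chr1:45311288-45311587, plus strand: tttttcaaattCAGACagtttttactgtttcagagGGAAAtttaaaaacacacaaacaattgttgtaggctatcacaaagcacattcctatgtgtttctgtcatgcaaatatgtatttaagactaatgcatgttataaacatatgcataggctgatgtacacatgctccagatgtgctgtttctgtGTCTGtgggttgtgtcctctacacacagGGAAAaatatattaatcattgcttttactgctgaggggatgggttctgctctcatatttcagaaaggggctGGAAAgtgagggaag
Col5a1, chr2:27886175-27886474, plus strand: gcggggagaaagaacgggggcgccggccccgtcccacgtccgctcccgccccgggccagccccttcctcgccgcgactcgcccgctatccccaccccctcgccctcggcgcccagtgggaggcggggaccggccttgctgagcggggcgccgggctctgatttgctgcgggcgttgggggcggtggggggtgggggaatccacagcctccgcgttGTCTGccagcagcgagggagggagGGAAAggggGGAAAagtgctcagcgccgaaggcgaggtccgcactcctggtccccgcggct
Col5a3, chr9:20815018-20815317, minus strand: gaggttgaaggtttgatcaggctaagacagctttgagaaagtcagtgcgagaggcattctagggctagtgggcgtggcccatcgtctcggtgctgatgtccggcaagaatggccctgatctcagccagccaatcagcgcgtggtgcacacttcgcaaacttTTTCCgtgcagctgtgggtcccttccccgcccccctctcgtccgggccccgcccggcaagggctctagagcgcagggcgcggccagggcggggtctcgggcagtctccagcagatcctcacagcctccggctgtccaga

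Regions of different antibodies were then overlaid. Of the 110 fibrillar collagen JUN regions 16 (14.5%) overlapped a SMAD3 region by at least 1 bp, against 18.1% of all JUN regions. For NFATC2 there were 13 (11.8%, against 15.4%), and 6 overlapped both (5.45%, against 7.50%). Conversely 30.9% of the 55 SMAD3 regions overlapped JUN, against 23.0% of all SMAD3 regions, and 18.6% of the 70 NFATC2 regions, against 16.7%. Of the 41 H3K9lc regions 2 (4.88%) overlapped JUN, against 5.92% of all H3K9lc regions. They were upstream of Col3a1 and Col11a1, and make up 1.82% of the JUN regions, against 6.07% of all JUN regions. In 4 genes all 3 factors shared a stretch of DNA, and these sequences are shown because no other place at the 8 genes had bases common to regions of every factor. At the Col1a1 site 65.6 kb upstream JUN had 386 and 156 raw reads, and SMAD3 and NFATC2 had 9 and 16 and 5 and 13. At the Col1a2 site 15.1 kb upstream JUN had 141 and 69, SMAD3 8 and 14, and NFATC2 13 and 3. The Col5a1 site 27.3 kb upstream had 213 and 135, 4 and 18, and 3 and 7. The Col5a3 site is the one 1.73 kb into the gene described above. SMAD3 reads were higher in siHK1 at each of the 4. Up to 300 bases of the shared stretch are given on the gene's strand from GRCm38, with the letters of the AP-1, SMAD and NFAT motifs in capitals on either strand. The Col1a1 and Col5a1 sites hold 1 AP-1 match each and the other two hold none in the bases shown.
Col1a1, chr11:94869821-94870120, plus strand: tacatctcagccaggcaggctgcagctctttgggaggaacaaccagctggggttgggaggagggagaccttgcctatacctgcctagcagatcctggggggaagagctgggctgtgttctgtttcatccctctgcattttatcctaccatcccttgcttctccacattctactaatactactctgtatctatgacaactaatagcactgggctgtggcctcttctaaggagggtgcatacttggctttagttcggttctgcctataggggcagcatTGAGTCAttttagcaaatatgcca
Col1a2, chr6:4489840-4490021, plus strand: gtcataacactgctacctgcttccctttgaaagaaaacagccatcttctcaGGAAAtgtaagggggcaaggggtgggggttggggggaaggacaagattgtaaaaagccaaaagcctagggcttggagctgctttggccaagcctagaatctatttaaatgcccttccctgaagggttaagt
Col5a1, chr2:27858640-27858820, plus strand: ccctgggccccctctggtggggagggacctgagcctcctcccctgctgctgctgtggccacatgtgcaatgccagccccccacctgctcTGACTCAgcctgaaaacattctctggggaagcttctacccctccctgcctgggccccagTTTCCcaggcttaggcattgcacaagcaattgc
Col5a3, chr9:20812655-20812954, minus strand: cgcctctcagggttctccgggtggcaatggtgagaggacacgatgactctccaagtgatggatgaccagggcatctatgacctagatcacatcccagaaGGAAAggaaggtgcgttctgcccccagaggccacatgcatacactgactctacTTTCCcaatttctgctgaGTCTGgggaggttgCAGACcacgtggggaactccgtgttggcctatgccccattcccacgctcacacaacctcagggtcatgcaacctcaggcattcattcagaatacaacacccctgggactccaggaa

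H3K9lc was also compared between control and TGF-β-treated cells. Over all regions the control library held 115572 reads and the TGF library 2313288, and the TGF library is the same one used against siHK1: its reads were identical at all 44088 regions common to both tables. The fibrillar collagen genes held 36 reads in control and 938 in TGF over 36 regions. Col1a1 had no region there. Before scaling each of the other 7 genes was far higher in TGF. Whether that reflects more lactylation or a shallower control library cannot be told apart from the listed reads. After scaling the log2 ratio of TGF over control was 0.38 (-0.10 to 0.90), against a median of 0.25 over all regions with a level. With equal totals over regions called in both libraries it was 1.08, and with the median region at 0 it was 0.13. Col5a2, with 8 and 371 reads, stood at 1.21 (0.22 to 2.43), and was the only gene whose interval excluded 0. Peaks in TGF only made up 7 of its 8 regions, 86.1% of the 36 regions and 85.9% of all. A region listed for that reason leans towards a high ratio. Col3a1 had 13 and 260 reads and a ratio of 0.00 (-0.80 to 0.93). Col11a1 had 7 and 192 reads, and the remaining genes with a region had 1 to 3 control reads each. Of 12 regions with a level 4 were at least 2-fold higher and 2 lower, beside 18.2% higher and 15.4% lower over all. Under those other scalings 8 were higher and 0 lower, and 2 were higher and 2 lower. At gene level 1 of 6 was higher (Col5a2) and 1 lower (Col5a1, with 3 and 16 reads), beside 19.2% and 7.73%. The Col5a1 ratio was -1.91, with an interval (-3.71 to 0.51) that spanned 0. One Col5a1 region, a peak in control only, held 2 and 1 reads, and the other held 1 and 15. Relative to the median region Col5a2 stood at 0.96 (-0.03 to 2.19), below 2-fold and with an interval spanning 0.

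Genes that make, fold and trim collagen were read in the same way. The list holds 26 genes, such as Serpinh1, the collagen chaperone HSP47, the prolyl hydroxylases P4ha1 to P4ha3, the lysyl hydroxylases Plod1 to Plod3, and the procollagen proteinases Bmp1 and Adamts2. For SMAD3 13 of 21 genes with a level were at least 2-fold higher in siHK1 and none lower, beside 21.2% and 11.5% of all genes with a level. Their median log2 ratio was 1.07, against 0.21 over all genes. Relative to the median SMAD3 region 8 of the 21 were higher and none lower, beside 12.8% and 19.8% of all genes. Serpinh1 had 22 reads in TGF and 50 in siHK1, at 1.65 (0.93 to 2.47). P4ha1 had 31 and 58, at 1.38 (0.75 to 2.08), and Bmp1 had 23 and 37. P4ha2, the deepest of the list with 214 and 127 reads, stood at -0.26 (-0.59 to 0.07). For JUN 1 of 26 was lower (P3h3) and none higher, beside 3.63% and 2.59%. For NFATC2 3 of 17 were higher and none lower, beside 14.9% and 8.84%, and for H3K9lc 1 of 13 was lower and 2 were higher, beside 4.13% and 3.57%. Among the other fibrillar collagens Col27a1 had 27 and 57 SMAD3 reads, at 1.55 (0.89 to 2.29), while Col24a1 had 61 and 26, at -0.73 (-1.46 to -0.05).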

How the data were processed

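The authors deposited, for each antibody, a table of regions with raw read counts and a 0 or 1 peak mark in both libraries. Other deposited columns (normalized means, log2 ratios, p-values, adjusted p-values and calls) are the authors' own comparisons and were not used, nor were 2 value columns that could not be tied to a sample. The study's methods name Bowtie2, MACS2, GRCm39 and spike-in DNA, whereas the submitters' processing notes name BWA 0.7.12 and mm10. Transcript coordinates in every table matched GENCODE vM21 on GRCm38 in 100% of cases, so that build is used. No spike-in counts were used.

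Counts were summed per gene as deposited. Pairs were scaled to equal totals over listed regions, which hides any loss shared by every region. Region ratios are log2(scaled reads + 0.5), and sums over the 8 genes or any of them carry no pseudocount except for calls of 2-fold. Ratios of the collagen-making genes, of the other fibrillar collagens and over all genes carry the pseudocount of 0.5. Intervals are exact (Clopper-Pearson) at 95%, without a pseudocount and shifted by the scaling (PCR duplicates of a molecule may be counted more than once). Library depths are not given in the sources used here. Calls needed at least 2-fold and a mean of at least 5 scaled reads. The calls and intervals were tested on simulated data. The members were listed by name, and members, lists and tests were chosen with earlier results of these data known. Besides the 8 genes, regions could be named if they were the deepest of a gene, within 1 kb of a start, or at least 2-fold changed with a mean of at least 10. The Col1a1 regions described beyond these, those common to several factors and single genes of the list of collagen-making genes were named after their values were seen. Motifs were searched in 200 bp windows, whole promoters or whole deepest regions. Alternatives were other scalings, minimums, folds and pseudocounts and fewer regions. Python 3.11.15, pandas 2.3.3, NumPy 2.4.6, SciPy 1.17.1, pysam 0.24.0 and matplotlib 3.10.9 were used.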

Additional observations from a re-analysis of the deposited data

Results flagged for a closer look

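At Col1a1 and Col5a1 the JUN and SMAD3 intervals lay on opposite sides of 0 for siHK1 over TGF. Col1a1 stood at -0.27 for JUN and 1.25 for SMAD3, and Col5a1 at -0.15 for JUN and 1.10 for SMAD3. With the median JUN region at 0 the Col1a1 interval stayed below 0 (-0.35 to -0.09) but that of Col5a1 spanned it (-0.20 to 0.001), and the deepest JUN region of Col5a1 alone stood at 0.34. With 1 library per antibody and condition, the difference between the antibodies was not tested. Among 10286 genes with a level for both antibodies, 396 (3.85%) had a JUN interval below 0 with a SMAD3 interval above 0, and 136 (1.32%) had the reverse. The library titled TGF, whose labels name no antibody and which no comparison uses, held 266 reads at the 8 genes over 393 regions, of which 102 were marked as peaks. Its deepest region there held 6 reads.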

How the results depend on the processing

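No paired analysis was possible because only 1 library exists for a condition and antibody, without replicate numbers. Without scaling, the log2 ratio over the 8 genes became -0.77 for H3K9lc, -0.97 for JUN, 0.33 for SMAD3, -0.074 for NFATC2 and 4.70 for TGF over control, and lower and higher regions numbered 18 and 1 (H3K9lc), 53 and 1 (JUN), 3 and 7 (SMAD3) and 0 and 30 (TGF over control), while 5 NFATC2 regions were lower. With equal totals over regions called in both libraries the ratio was -0.13 for JUN and 1.08 for TGF over control, where 0 regions were then lower and 8 higher. Without regions between genes it was 0.30 for H3K9lc and 0.074 for JUN, a change of sign. With the median region set to 0, an alternative chosen after seeing the data, it was 0.50 for SMAD3 with 2 regions lower and 8 higher, and 2 regions were higher for TGF over control. With no minimum, lower and higher regions numbered 13 and 25 for SMAD3, 16 and 32 for NFATC2, and 6 and 15 for TGF over control. With a mean of at least 10 they were 0 and 1 for H3K9lc, 0 and 7 for SMAD3, 0 and 2 for NFATC2 and 0 and 1 for TGF over control, and 7 JUN regions were lower. At 1.5-fold they were 11 and 8 for H3K9lc and 25 and 15 for JUN, with 2 lower for SMAD3, 8 higher for NFATC2 and 4 lower for TGF over control. A pseudocount of 1 kept every count within 1.5 times. Asking for 0.5 of the shorter region, 1 H3K9lc region overlapped JUN and 0 overlapped NFATC2, against 2 each at 1 bp. Of 134 alternatives for single genes, 36 lay outside the counting interval, and of these 2 turned a 2-fold call: SMAD3 at Col1a1 was -0.35 within 3 kb of an annotated start (1 region, 9 and 5 reads), and Col5a1 was 2.42 for TGF over control without scaling. The sign was opposite to the reported one in 36 of the 134. With a level at 20 of 55 SMAD3 and 13 of 70 NFATC2 regions, depth limits statements on single regions of these factors.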
